A study of Mus musculus with 24 samples.

Results

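Transcripts of 9 genes that are used by megakaryocytes and carried by platelets were followed in splenic cells of irradiated and unstressed mice. The genes were taken by name, as Pf4, Ppbp, Itga2b, Gp9, Gp1ba, Gp1bb, Gp5, Gp6 and Treml1, and each had 1 row in every file, so that 9 of the 21671 genes listed were described. Expression was measured by RNA-Seq of total RNA from which ribosomal RNA had been removed, in 24 samples of 8 groups. The mice were of strain C57/Bl6 and 8 weeks of age, either wild-type (Trp53+/+, labelled wt) or homozygous for a germline knockout of the p53 gene (Trp53-/-, labelled null), and they were left unstressed (mock) or exposed to 7 Gy of whole-body irradiation (IR) 4 h before the spleen was taken. Spleen suspensions, after lysis of red blood cells, were passed over magnetic beads against B220, the bound cells being the B cells and the flow-through the non-B cells. Each cell type had 4 Trp53+/+ and 2 Trp53-/- samples for either treatment. The study's methods speak of that many mice in each condition, the labels do not say that every sample is a separate animal, and p-values measure the spread between these samples. Non-B cells are a mixture enriched in T cells. In such bulk samples, fewer megakaryocytes or platelets and less RNA in each of them cannot be told apart.

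Megakaryocytes are the large, polyploid cells that shed platelets, and in the mouse the spleen stays a site of their formation in adult life and a store of platelets. Platelets have no nucleus and carry RNA that they took from the megakaryocyte, together with granules that hold the chemokines platelet factor 4 (Pf4) and pro-platelet basic protein (Ppbp). They bind to injured vessel walls through the glycoprotein Ib-IX-V complex (Gp1ba, Gp1bb, Gp9, Gp5), which is the receptor of von Willebrand factor, and through the collagen receptor glycoprotein VI (Gp6), and they aggregate through the fibrinogen receptor, of which Itga2b, also known as CD41, is the alpha chain. Treml1 is a receptor stored in the alpha granules. GATA factors and Ets factors are known to drive these genes in megakaryocytes.

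The promoters of the 9 genes, read from RefSeq on build GRCm38.p6, are shown for the 4 that held the GATA-factor core GATAA, since the other results on transcription factors refer to them. The 160 bases before the start of each gene are printed 5′ to 3′ on the strand of the gene, with GATAA, or TTATC where the motif lies on the opposite strand, in capitals. They lie at chr6:87777910-87778069 (plus strand) for Gp9, chr11:70638962-70639121 (plus strand) for Gp1ba, chr16:30310782-30310941 (minus strand) for Gp5 and chr7:4397745-4397904 (minus strand) for Gp6.
Gp9: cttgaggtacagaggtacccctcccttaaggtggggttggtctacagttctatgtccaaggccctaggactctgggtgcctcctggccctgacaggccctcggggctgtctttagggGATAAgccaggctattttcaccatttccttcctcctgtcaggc
Gp1ba: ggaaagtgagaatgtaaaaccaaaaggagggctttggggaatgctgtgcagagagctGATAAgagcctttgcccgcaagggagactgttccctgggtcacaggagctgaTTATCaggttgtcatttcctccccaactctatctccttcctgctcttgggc
Gp5: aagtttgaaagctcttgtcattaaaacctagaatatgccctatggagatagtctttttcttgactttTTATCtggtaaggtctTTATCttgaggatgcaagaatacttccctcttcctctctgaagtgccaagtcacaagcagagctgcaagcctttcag
Gp6: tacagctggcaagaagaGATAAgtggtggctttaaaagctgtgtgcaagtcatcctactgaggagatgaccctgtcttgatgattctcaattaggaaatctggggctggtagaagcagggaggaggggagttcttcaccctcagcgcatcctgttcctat
Over the 250 bases before the start, on both strands, GATAA occurred in 4 of 9 of these promoters and in 22.6% of all 32851 promoters of that table. Counted from the start of the gene, its 2 copies in Gp1ba began at -103 and -51 and those in Gp5 at -93 and -77. The Ets core GGAAG was found in 8 of 9, all but Gp6, and in 64.1% of all promoters. The decamer of the p53 response element, searched by name on both strands, was in 0 of 9 promoters and in 7.1% of all, and a pair of decamers in 0 of 9 and in 0.1% of all. These are matches of letters in a short window and say nothing about binding.

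Levels are given as RPKM, the reads on a gene scaled to the length of its exons and to all reads on exons in the sample, which allows levels of different genes to be set side by side. The depth, estimated from the steps that single reads leave in low values, ranged from 4.75 to 11 M reads per sample with a median of 8.79 M. The median number of reads behind a value was 250 for Gp1ba, 168 for Itga2b and 117 for Ppbp, but only 9.9 for Gp1bb, 9.5 for Treml1 and 7.0 for Gp6, whose lowest value rests on 1 read. Trp53 itself kept reads in the knockout, at an RPKM of 24 and 25.0 in the mock Trp53-/- non-B samples against 43.4 to 49.5 in the mock Trp53+/+ ones. After IR its levels overlapped, at 34.6 and 36.4 in Trp53-/- and 35.0 to 38.6 in Trp53+/+ non-B samples. Cdkn1a, a target of p53, was at 69.6 to 88.3 in irradiated Trp53+/+ non-B samples and at 2.42 and 2.63 in irradiated Trp53-/- ones. Libraries also differed in reads on 1443 olfactory and vomeronasal receptor genes, which blood cells do not use. Between 5.41% and 13.1% of these genes had an RPKM above 0 in 6 of the 8 groups, but 5 irradiated Trp53+/+ libraries, non-B replicates 1, 3 and 4 and B replicates 1 and 2, exceeded 20%, up to 51.35%. Calls are given with and without these 5 libraries where they differ. That setting, chosen after seeing the data, leaves 1 irradiated Trp53+/+ non-B sample, and in it 0 of 13664 genes were called in Trp53-/- non-B cells by limma, with 2308 at an unadjusted p under 0.05.

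In unstressed wild-type spleen, 8 of the 9 genes were several-fold higher in non-B cells than in B cells, while Gp1ba differed little. The chemokine gene Ppbp was the most abundant of the 9, with an RPKM of 36.2, 37.9, 48.3 and 52.9 in the non-B samples and of 11.6, 8.20, 9.46 and 10.9 in the B samples, a ratio of means of 4.36. Pf4, whose gene lies 2375 bases from Ppbp on chromosome 5 (mm9, chr5:91201461-91202407, plus strand), stood at 11.7, 13.8, 22.1 and 22.8 in non-B cells and at 3.14, 2.72, 3.12 and 4.43 in B cells. The integrin chain Itga2b was at 6.84, 7.36, 9.84 and 10.1 against 2.02, 2.42, 1.68 and 1.45. For each of these genes the lowest non-B sample exceeded the highest B sample.

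Among the adhesion receptors, the collagen receptor gene Gp6 was at 2.27, 2.68, 3.55 and 3.08 in non-B cells and at 0.591, 0.556, 0.227 and 0.090 in B cells, and never reached an RPKM of 1 in a B sample of either genotype. Of the Ib-IX-V complex, Gp9 had 11.1, 13.3, 11.1 and 12.4 in non-B cells and 3.72, 1.97, 1.45 and 1.54 in B cells. Gp5 had 5.12, 4.40, 5.83 and 5.88 against 1.47, 0.878, 1.02 and 1.14. Gp1bb had the widest ratio of means, 14.8, with 2.95, 2.60, 3.09 and 4.07 against 0.420, 0.102, 0.188 and 0.15. In the annotation of the same genome build, however, 593 exonic bases of Gp1bb are shared with Sept5 on the same strand. The values of Gp1bb, and its ratio, are therefore uncertain. Sept5 itself was at 3.245 to 15.7 in the mock Trp53+/+ non-B samples and at 0.193 to 0.899 in the B samples. Its part in the values of Gp1bb was not tested. Treml1 was at 2.24, 3.21, 4.09 and 3.76 in non-B cells and at 0.709, 0.389, 0.477 and 0.531 in B cells.

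Gp1ba, the subunit that contacts von Willebrand factor, stood apart from its partners. Its RPKM was 9.31, 9.54, 11.7 and 9.41 in the non-B samples and 7.07, 7.95, 6.84 and 6.93 in the B samples, a ratio of means of 1.39. In B cells it was therefore higher than Gp9, Gp5 and Gp1bb in all 4 samples, and the ratio of Gp1ba to Gp9 was 1.9, 4.03, 4.71 and 4.5 there against 0.836, 0.719, 1.05 and 0.757 in non-B cells. The gene (mm9, chr11:70452624-70456328, plus strand) has no annotated overlap. Slc25a11, on the opposite strand, ends 1370 bases away and had an RPKM of 50.9 to 63.1 over the mock Trp53+/+ samples of both cell types, but whether reads from outside the gene entered its value was not tested.

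By limma on log2(RPKM + 0.5), in a fit of all 24 samples and 14688 genes, 8 of 9 genes were called higher in non-B cells, which took both a Benjamini-Hochberg adjusted p below 0.05 and a log2 fold change beyond 0.58 in either direction. Of all genes tested, 24.7% were called in either direction and 17.3% as higher in non-B cells. Gp6 passed the filter of this fit, an RPKM above 1 in at least 1 sample, through non-B samples alone. Its results in this fit carry that choice, and it was also called with no filter. The 8 log2 fold changes ran from 1.84 (SE, the standard error, 0.22, adjusted p = 1.03e-06 by limma) for Gp5 to 2.37 (SE 0.29, adjusted p = 1.19e-06 by limma) for Gp1bb, and their adjusted p was at most 0.000161. For Gp1ba the log2 fold change was 0.44 (SE 0.11, adjusted p = 0.00217 by limma), under the fold threshold. All 9 genes had every B sample below every non-B sample, which was so for 21.7% of the genes tested. The median log2 fold change of the 9 was 2.00 and that of all genes 0.00. Carry-over of other cells and transcripts of the B cells themselves cannot be told apart. The summed RPKM of the 9 genes in B cells was 25.2% of that in non-B cells, beside 23.7% for 14 T cell markers, 20.3% for 12 neutrophil markers, 36.5% for 16 erythroid markers, 5.83% for 10 mast cell and basophil markers, 137.4% for 13 monocyte and macrophage markers and 133.66% for 10 endothelial markers. Among the 9 genes this share ran from 6.77% for Gp1bb to 72.04% for Gp1ba.

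**Figure D1:**
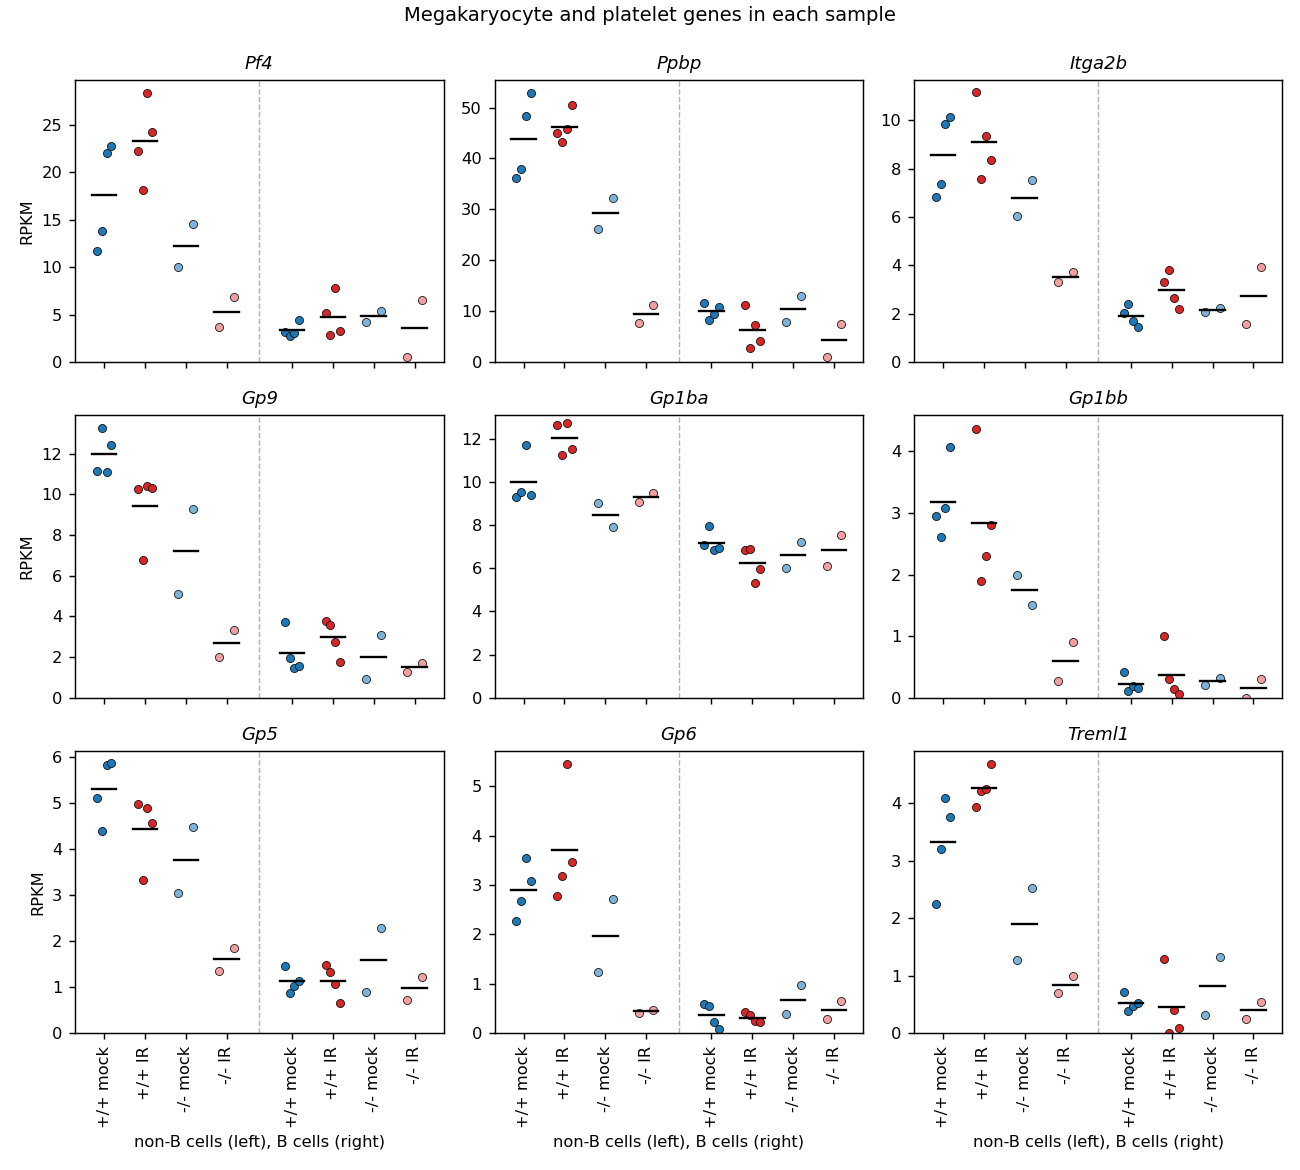
RPKM of the 9 genes (1 panel each, linear axis from 0) in each of the 24 samples, non-B cells left and B cells right of the dashed line, with a point per sample and a bar at the group mean of 4 Trp53+/+ or 2 Trp53-/- samples. The irradiated Trp53-/- non-B samples lie below the mock Trp53-/- ones in 8 panels, all but that of Gp1ba, whose levels vary least between groups.

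Irradiation of wild-type mice changed none of the 9 genes in non-B cells by the call used. Pf4 stood at 22.3, 18.2, 28.4 and 24.3 after IR, overlapping its mock values. Ppbp was at 45.0, 43.3, 45.7 and 50.6, within the range of the mock samples. The integrin gene Itga2b was at 11.2, 7.57, 9.36 and 8.34, and 3 of these 4 values lay inside the mock range. Treml1 was at 3.93, 4.21, 4.25 and 4.68, and Gp6 at 2.78, 3.18, 5.46 and 3.46. Each of these ranges overlapped that of the mock samples.

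Within the Ib-IX-V complex the values after IR leaned in different directions in Trp53+/+ non-B cells. Gp9 was at 10.3, 6.77, 10.4 and 10.3, every sample below the lowest mock sample (exact two-sided permutation test, p = 0.0286, the smallest that 4 samples against 4 allow, 1 of 18 such tests), with a log2 fold change of -0.34 (SE 0.21, adjusted p = 0.259 by limma). No other gene of the 9 was free of overlap in this contrast, and the share of all genes without overlap was not computed. Gp5 was at 4.98, 3.34, 4.91 and 4.58 and Gp1bb at 4.37, 1.89, 2.30 and 2.80, both overlapping their mock values. Gp1ba was at 12.7, 11.3, 12.7 and 11.5, of which only the 2 highest lay above the highest mock sample, 11.7. The ratio of Gp1ba to Gp9 within a sample was 1.23, 1.66, 1.22 and 1.12 after IR, all above the mock values (exact two-sided permutation test on the log2 ratio, p = 0.0286, or 0.0572 when adjusted over 4 such ratio tests, a test chosen after the values were seen).

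In the fit of the 12 non-B samples and 14018 genes, 0 of 9 genes were called after IR in Trp53+/+ cells by limma, where 9.85% of all genes were called, 5.74% as higher and 4.11% as lower. At an unadjusted p under 0.05 there was 1, Gp1ba (log2 fold change 0.26, SE 0.10, adjusted p = 0.0951 by limma). The log2 fold changes ran from -0.34 for Gp9 to 0.43 for Pf4, with a median of 0.09 beside -0.03 for all genes. Irradiated libraries with many reads on receptor genes made up 3 of the 4, and without them 1 irradiated sample was left in the group. The log2 fold change was then -0.78 for Gp9, -0.61 for Gp1bb, -0.59 for Gp5, -0.15 for Itga2b, -0.0002 for Ppbp and 0.10 for Pf4, while Gp6, Gp1ba and Treml1 stayed above 0. By limma 0 of 9 were called, with 1 at an unadjusted p under 0.05.

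In non-B cells without p53, the same irradiation left 8 of the 9 genes lower in both irradiated samples than in both mock samples. Ppbp, at 26.1 and 32.3 in mock mice, was at 7.72 and 11.3 after IR, which is 32.6% of the mock mean. Pf4 went from 10.025 and 14.5 to 3.75 and 6.91, or 43.4%. Gp6 went from 1.23 and 2.71 to 0.416 and 0.471, or 22.5%, the lowest share of the 9. Gp9 was at 5.12 and 9.26 before and at 2.01 and 3.34 after, or 37.2%. These 4 genes encode chemokines and 2 separate adhesion receptors.

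The remaining receptor genes showed the same order of samples. Itga2b was at 6.04 and 7.53 in mock and at 3.31 and 3.74 in irradiated Trp53-/- non-B cells, 51.9% of the mock mean. Gp5 was at 3.04 and 4.49 and then at 1.36 and 1.86, or 42.7%. For Treml1 the values were 1.27 and 2.53 in mock mice and 0.699 and 0.988 after IR, or 44.4%. Gp1bb went from 1.99 and 1.5 to 0.276 and 0.910, or 34.0%. The 9th gene, Gp1ba, was at 9.05 and 7.90 in mock mice and at 9.07 and 9.51 after IR, both irradiated samples being the higher ones.

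Only Ppbp passed the test in Trp53-/- non-B cells, with a log2 fold change of -1.58 (SE 0.20, adjusted p = 0.0176 by limma). Of all 14018 genes, 0.442% were called in this contrast of 2 samples against 2, and 0.25% as lower. For the other 7 genes that lay lower, the log2 fold change was between -0.79 (Treml1) and -1.32 (Gp6). Their adjusted p values by limma ran from 0.081 (Gp9) to 0.216 (Treml1). At an unadjusted p under 0.05 by limma there were 8 genes, and the share of all genes at that cut-off is not given for this fit. The median of the 9 was -1.09, beside -0.02 for all genes. Both irradiated samples lay below both mock samples for 8 of 9 genes and for 25.3% of all genes. The call of Ppbp was lost without mock replicate 1 (adjusted p = 0.0512 by limma), mock replicate 2 (0.209) or irradiated replicate 1 (0.135), each of which leaves 1 sample in a group, and without the 5 libraries rich in receptor reads (0.0823), since these share the estimate of the spread.

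The response to IR differed between the genotypes for 3 of the 9 genes in non-B cells. In that test of the difference itself, Ppbp had a difference of log2 fold changes, Trp53+/+ minus Trp53-/-, of 1.67 (SE 0.25, adjusted p = 0.00361 by limma), Gp6 of 1.61 (0.41, adjusted p = 0.0403 by limma) and Pf4 of 1.60 (0.43, adjusted p = 0.047 by limma). Of all genes, 7.35% were called, 3.98% as higher in Trp53+/+ cells. All 9 differences were above 0, with a median of 0.94 against -0.02 for all genes and 0.74 for monocyte and macrophage markers, and the smallest was that of Gp1ba, 0.13 (SE 0.18, adjusted p = 0.671 by limma). For Treml1 it was 1.14 and for Itga2b 0.94, with adjusted p values of 0.0792 and 0.0675 by limma. All 9 genes, Gp1ba included, were lower in both irradiated Trp53-/- samples than in all 4 irradiated Trp53+/+ samples, as were 24.9% of all genes, and the ratio of the means ran from 1.3 for Gp1ba to 8.39 for Gp6.

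The calls of Gp6 and Pf4 in this test were close to the threshold. Gp6 was lost with a pseudocount of 1 (adjusted p = 0.0557 by limma) and Pf4 with no mean-variance trend (0.0597). Of the 3 calls, that of Ppbp alone was kept with no filter, quantile normalization, the share of receptor genes as a covariate or Trp53+/+ replicates 3 and 4 alone, and none without the 5 libraries rich in receptor reads, where the difference was 1.58 for Ppbp (adjusted p = 0.0698 by limma), 1.45 for Gp6 (0.145) and 1.27 for Pf4 (0.266). Among fits that left out 1 library, Ppbp alone was called without Trp53-/- mock replicate 2, Trp53-/- irradiated replicate 1, Trp53+/+ mock replicate 1 or 2, or Trp53+/+ irradiated replicate 3. Pf4 was also lost without Trp53-/- mock replicate 1 or Trp53+/+ irradiated replicate 1 or 4, and Gp6 without Trp53-/- irradiated replicate 2 or Trp53+/+ mock replicate 4, while Treml1 was gained without Trp53-/- mock replicate 1.

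**Figure D2:**
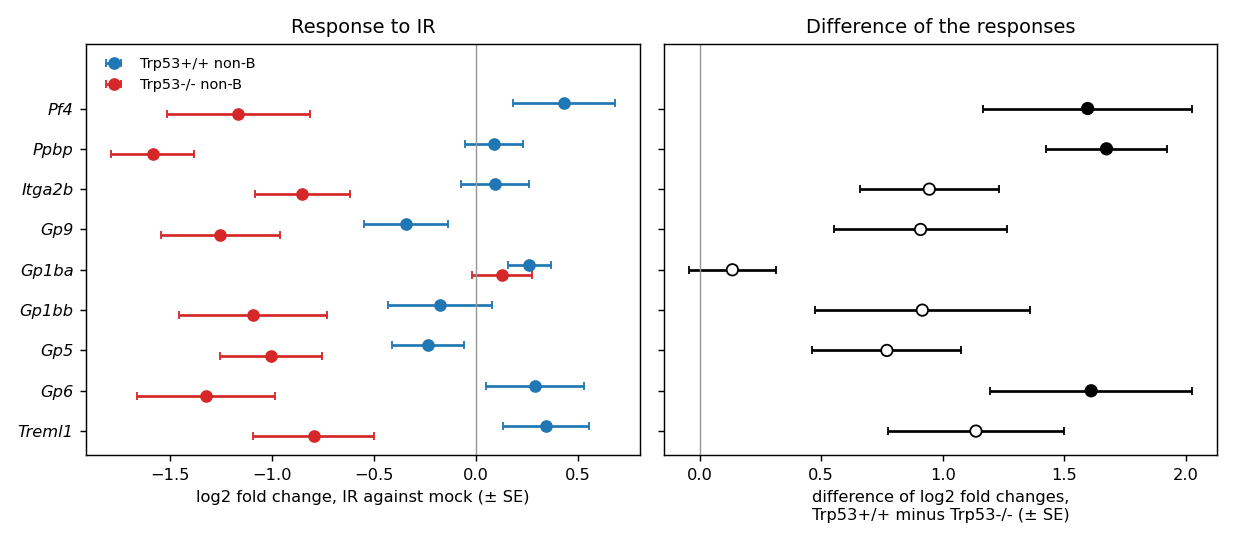
Left, log2 fold change of IR against mock (± SE, from limma) of the 9 genes in Trp53+/+ (blue, 4 against 4 samples) and Trp53-/- (red, 2 against 2 samples) non-B cells. Right, the difference of both, with filled points for the 3 called genes, Pf4, Ppbp and Gp6. The Trp53-/- values lie between -0.79 and -1.58 for 8 genes and at 0.13 for Gp1ba, while the Trp53+/+ values lie between -0.34 and 0.43.

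Before irradiation the 9 genes were also somewhat lower in Trp53-/- than in Trp53+/+ non-B cells, without any call. All 9 log2 fold changes of null against wild-type were negative, from -0.22 for Gp1ba to -0.75 for Gp9, with a median of -0.51 beside 0.01 for all genes. By limma 0 of 9 were called and 4 had an unadjusted p under 0.05, Ppbp, Gp9, Gp1bb and Treml1, all with an adjusted p of 0.844, while 0.0428% of all genes were called. For Ppbp both mock Trp53-/- samples, at 26.1 and 32.3, lay below the lowest mock Trp53+/+ sample, at 36.2. The same order held for Gp9, Gp1bb and Gp1ba, while the samples of the other genes overlapped. The share of all genes with this order was not computed.

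Over the 8 groups in the order of their means, the highest was irradiated Trp53+/+ non-B cells for 6 genes (Pf4, Ppbp, Itga2b, Gp1ba, Gp6, Treml1) and mock Trp53+/+ non-B cells for Gp9, Gp1bb and Gp5. All 4 non-B groups ranked above the 4 B groups for 6 genes, while for Ppbp, Gp9 and Gp6 irradiated Trp53-/- non-B cells ranked among the B groups. The mean of Ppbp there was 9.51, beside 10.04 in mock Trp53+/+ B cells, and the samples of these 2 groups overlapped. Neighbours in the order overlapped in most places. They were separate, for the 8 genes other than Gp1ba, between mock Trp53-/- non-B cells and the next group down, for Ppbp also between mock Trp53+/+ and mock Trp53-/- non-B cells, for Gp9 between mock and irradiated Trp53+/+ non-B cells, and for Gp1ba between irradiated and mock Trp53-/- non-B cells.

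B cells showed lower and more scattered levels, and no call for any of the 8 genes that passed the filter, Gp6 being the one that did not. Gp1bb and Treml1 passed it only through irradiated Trp53+/+ replicate 1, at 1.008 and 1.297, a library rich in receptor reads. No other Trp53+/+ B sample was above an RPKM of 1 for either gene. The irradiated sample in which they were highest thus decided that they were tested, and their tests in B cells carry that choice. After IR, Ppbp was at 11.2, 2.70, 7.32 and 4.06 and Pf4 at 5.23, 2.83, 7.79 and 3.29 in Trp53+/+ B cells, both overlapping the mock samples. Itga2b was at 3.31, 3.8, 2.64 and 2.20 (log2 fold change 0.54, SE 0.24, adjusted p = 0.0762 by limma), with 3 of 4 samples above the highest mock value, 2.42, and it was called without irradiated replicate 4. By limma 0 of 8 genes were called, with 1 at an unadjusted p under 0.05, where 24.7% of the 13821 genes were called. In Trp53-/- B cells 0 of 8 were called, again with 1 at an unadjusted p under 0.05, where 24.3% of all genes were called. There, the irradiated samples differed widely from each other. Ppbp was at 7.98 and 12.9 in mock and at 1.05 and 7.55 in irradiated Trp53-/- B samples, and Pf4 at 4.27 and 5.4 and then at 0.578 and 6.57. Both genes were called as lower without irradiated replicate 2, a fit that leaves 1 sample in that group, while without replicate 1 neither was. With the replicate number as a block, Ppbp was called in Trp53-/- B cells.

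Most receptor genes were low in irradiated B cells. In Trp53+/+ samples Gp9 was at 3.79, 3.59, 2.74 and 1.75, Gp5 at 1.48, 1.33, 1.08 and 0.648, Gp6 at 0.421, 0.361, 0.241 and 0.224 and Gp1bb at 1.01, 0.299, 0.133 and 0.062, each overlapping its mock range. In Trp53-/- B cells Itga2b was at 2.06 and 2.22 in mock and at 1.57 and 3.93 after IR, and Gp1ba at 6.02 and 7.21 and then at 6.13 and 7.56. Gp1ba was thus again the highest of the complex in all 4 Trp53-/- B samples, while Gp1bb was listed at 0 in irradiated replicate 1.

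The response to IR differed in 0 of 8 genes by limma, with 0 at an unadjusted p under 0.05, where 18.8% of all genes were called, and in 1 gene, Pf4, without irradiated Trp53-/- replicate 2. At baseline 0 of 8 were called by limma and 0 had an unadjusted p under 0.05, with 0.0506% of all genes called. The difference between the responses of Trp53+/+ non-B and B cells was called for 1 of 9 genes, Gp1ba (0.45, SE 0.15, adjusted p = 0.0285 by limma), where 29.9% of all genes were called. Its values after IR were 6.86, 6.92, 5.32 and 5.98 in B cells, of which 2 lay below the mock range. That call was lost with the replicate number as a block (adjusted p = 0.0608 by limma), without the 5 libraries rich in receptor reads (0.1), with Trp53+/+ replicates 1 and 2 or 3 and 4 alone, and without Trp53+/+ non-B mock replicate 1, 2 or 4, non-B irradiated replicate 1 or 3, B mock replicate 2 or B irradiated replicate 3. Without B irradiated replicate 1, Treml1 was called as well.

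Across the 12 non-B samples, 8 of the genes varied together and Gp1ba less so. Pearson's r of log2(RPKM + 0.5) was between 0.765 and 0.971 over the 28 pairs without Gp1ba, with a median of 0.916, and between 0.315 and 0.637 over the 8 pairs with it. The highest value was that of Gp9 and Gp5. In the 12 B samples, the 28 pairs had r between -0.021 and 0.738, with a median of 0.464, and the highest was that of the neighbours Pf4 and Ppbp. These are descriptions over samples that fall into the 4 groups of each cell type, which share libraries across all genes.

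**Figure D3:**
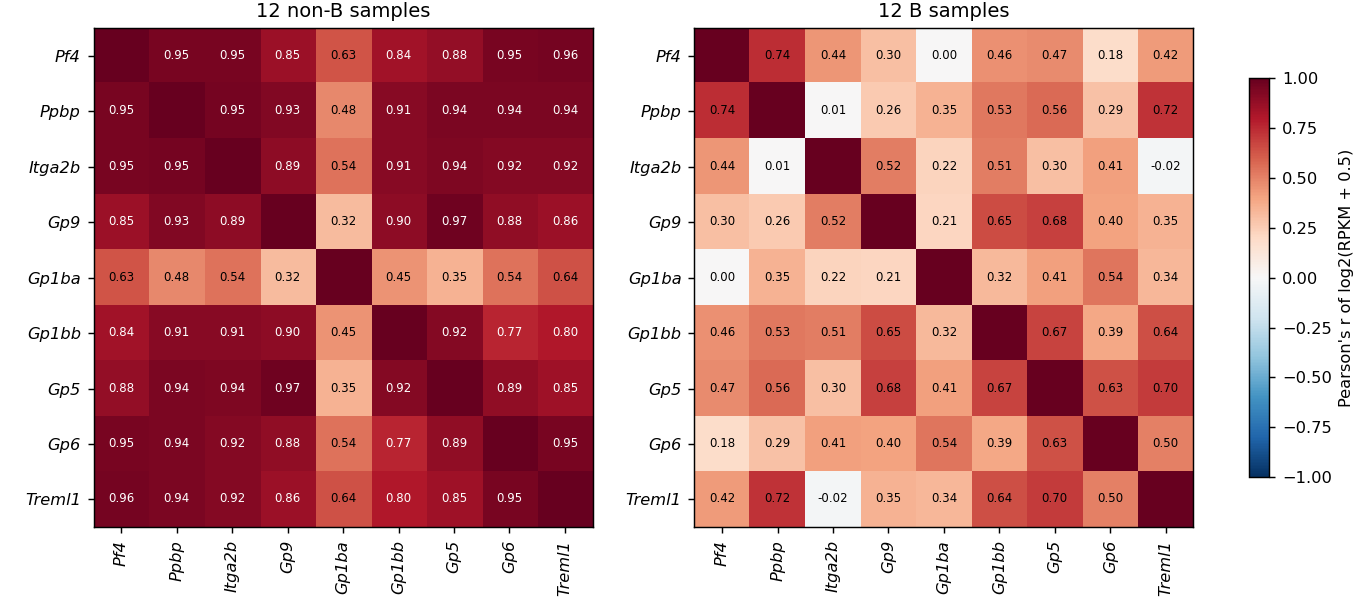
Pearson's r of log2(RPKM + 0.5) between each pair of the 9 genes over the 12 non-B samples (left) and the 12 B samples (right), on a colour scale from -1 to 1. In non-B samples the row of Gp1ba stands apart with r between 0.315 and 0.637, and in B samples the median r over pairs without Gp1ba is 0.464, against 0.916 in non-B samples.

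Among the 10 genes most like the mean of the 9, over the 12 non-B samples and 14640 genes, were Tubb1 (r = 0.988), Myl9 (0.985), Gng11 (0.979), Clu (0.978), Fhl1 (0.977), Sdpr (0.973), Mylk (0.973), G6b (0.972) and Alox12 (0.964). Tubb1 encodes the beta tubulin of the platelet's microtubule ring and Myl9 a myosin light chain. Over all 24 samples and 14679 genes, Tubb1 (0.980) again came first, and the 10 included Gas2l1 (0.975), Myl9 (0.970), Fhl1 (0.962), Rab27b (0.957), Ctla2a (0.955), Ltbp1 (0.954), Plxna4 (0.951) and G6b (0.950). Tubb1 stood at 23.0 to 32.9 in mock and 31.1 to 37.0 in irradiated Trp53+/+ non-B samples, at 17.6 and 23.5 in mock Trp53-/- samples and at 4.84 and 7.52 in irradiated ones. These samples are the ones over which Tubb1 was chosen for its likeness to the 9 genes, so that its lower values there are a description.

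Of 80 further megakaryocyte and platelet genes, 79 were in the files and 76 were tested in non-B cells. In Trp53-/- cells 0 rose and 5 fell after IR, Clec1b, Gata2, Gng11, Myl9 and Tubb1, with a median log2 fold change of -0.41, where 0.25% of all genes fell. In Trp53+/+ cells 5 rose and 6 fell, or 14.5% beside 9.85% of all genes, with a median of 0.12. The difference of the responses was called for 12, or 15.8% beside 7.35% of all genes, all higher in Trp53+/+ cells, with a median of 0.51. Of these 12, Tubb1, Myl9, Gng11, Clu and Mylk were among the genes most like the 9 over the same non-B samples. The further genes were also chosen with earlier results of these data known, so that their shares are a description. Without the 5 libraries rich in receptor reads, 75 of these genes were tested, 0 were called in Trp53-/- cells by limma with 32 at an unadjusted p under 0.05, 2 rose and 3 fell in Trp53+/+ cells (Dnm3, Serpine2, F2r, F2rl3 and Zfpm1), and the responses differed for 1, Serpine2, where 2.35% of all genes were called in Trp53+/+ cells and 1.4% for the difference. In mock Trp53+/+ mice, 44 of 78 tested were higher in non-B cells and 6 were higher in B cells, or 64.1% in either direction beside 24.7% of all genes.

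By role, the group of 14 transcription and growth factors held 5 that fell in irradiated Trp53+/+ non-B cells and 0 that rose. That is a share of 35.7%, where 4.11% of all genes fell. The leading ones were Gfi1b, Gata1 and Tal1. Gfi1b was at 5.33 to 31.7 in mock and 0.427 to 1.69 in irradiated samples (log2 fold change -3.50, SE 0.62, adjusted p = 0.00357 by limma), and Gata1 at 10.9 to 43.2 and 1.85 to 4.04 (log2 fold change -2.75). Tal1 had a log2 fold change of -2.59. Without the 5 libraries the log2 fold changes were -3.86, -3.30 and -3.06, and none of these 3 was called (adjusted p = 0.126, 0.108 and 0.184 by limma). These 3 factors also act in erythroid cells. In the same contrast 10 of 16 erythroid markers fell, or 62.5% beside 4.11% of all genes, with a median log2 fold change of -1.83. Their summed RPKM was 242.6 to 722.0 in mock and 72.4 to 205.8 in irradiated samples. Without the 5 libraries 2 of the 16 were called. The part of erythroid cells in these changes was not tested. In Trp53-/- cells only Gata2, which mast cells and basophils also use, was called, and the difference of the responses was called for 0 of 14 by limma, with 6 at an unadjusted p under 0.05. Both irradiated Trp53-/- samples were below both mock ones for 3 of the 4 genes with the GATAA core in the promoters printed above, all but Gp1ba, and for all 5 genes without it. The same order held for 25.3% of all genes tested, and a part of the motif in it was not tested.

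Of 30 integrins, receptors and signalling genes, 29 were tested, and after IR 2 rose and 1 fell in Trp53+/+ non-B cells, a share of 10.3%, near the 9.85% of all genes. Selp, the P-selectin of platelets and endothelium, rose from 1.08 to 2.37 in mock samples to 2.43 to 6.30 (log2 fold change 1.14, SE 0.29, adjusted p = 0.0197 by limma). The ADP receptor gene P2ry12 rose by a log2 fold change of 0.66 (adjusted p = 0.0269 by limma), and the thrombin receptor gene F2rl3 had a log2 fold change of -1.15 (adjusted p = 0.00238 by limma). Of these 3, F2rl3 alone was called without the 5 libraries. In Trp53-/- cells 2 fell, Clec1b and Gng11, or 6.9%, where 0.25% of all genes fell. The responses differed for 4, Clec1b, Gng11, P2ry12 and Pear1, or 13.8% beside 7.35% of all genes. Unlike the 8 genes above, P2ry12 had like levels in both cell types of mock Trp53+/+ mice, 7.84 to 11.1 in non-B samples beside 7.86 to 10.6 in B samples.

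Among 17 tested granule and coagulation genes, 2 rose in Trp53+/+ non-B cells, Serpine2 and Mmrn2, and 0 fell, a share of 11.8%, near that of all genes, and in Trp53-/- cells 0 were called in either direction by limma, with 8 at an unadjusted p under 0.05. Serpine2, a protease inhibitor, went from 0.811 to 1.04 in mock samples to 9.19 to 14.8 (log2 fold change 3.04, SE 0.17, adjusted p = 5.48e-07 by limma), but it reached 14.5 to 23.3 in irradiated Trp53+/+ B cells as well. Of 16 tested cytoskeletal and lipid mediator genes, Dnm3 rose in Trp53+/+ cells (log2 fold change 1.77, adjusted p = 0.000154 by limma). Myl9 and Tubb1 fell in Trp53-/- cells, or 12.5%, where 0.25% of all genes fell. The responses differed for 6, Cald1, Dnm3, Myl9, Mylk, Tbxas1 and Tubb1, or 37.5% beside 7.35% of all genes. The median difference of this group was 0.959, and 0.815 without the 5 libraries rich in receptor reads. Dnm3 was likewise at 1.23 to 3.26 in irradiated Trp53+/+ B cells.

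**Figure D4:**
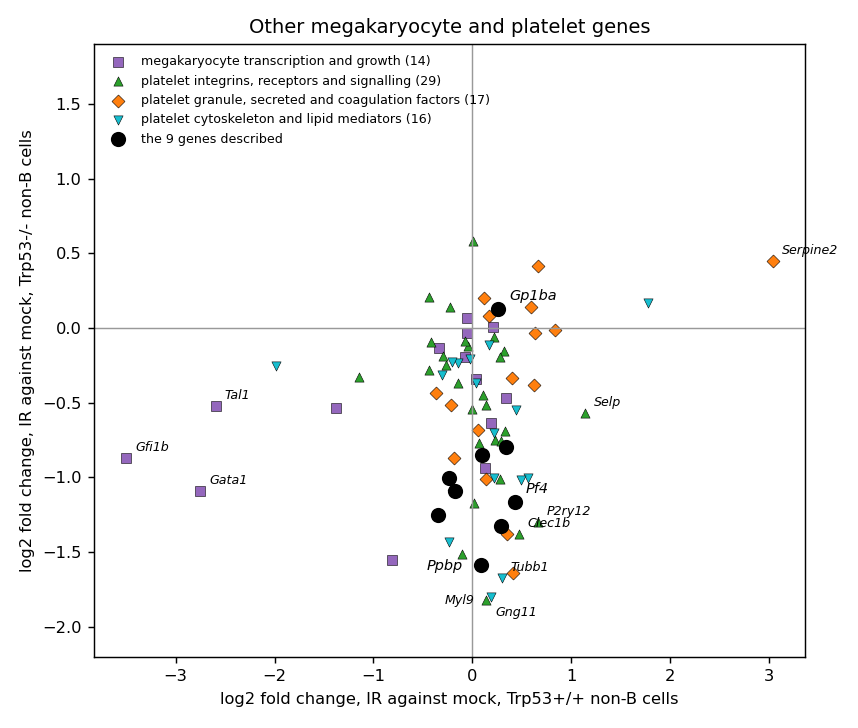
Log2 fold change of IR against mock in Trp53+/+ (horizontal axis) and Trp53-/- (vertical axis) non-B cells for 76 further megakaryocyte and platelet genes, coloured by role, and for the 9 genes described (black). The black points lie near 0 on the horizontal axis and, except Gp1ba, between -0.79 and -1.58 on the vertical axis, with Tubb1, Myl9 and Gng11 beside them and Gfi1b, Gata1 and Tal1 far to the left.

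Other cell types in the non-B samples were followed by the summed RPKM of their markers. The sum over the 9 genes was 87.8 to 124.5 in mock and 99.7 to 123.5 in irradiated Trp53+/+ samples, 63.9 and 82.8 in mock Trp53-/- samples, and 28.6 and 39.0 in irradiated Trp53-/- ones. In the same 4 Trp53-/- samples, T cell markers summed to 1073.5 and 916.7 in mock and to 867.3 and 1103.5 after IR, neutrophil markers to 543.2 and 727.0 and then 609.1 and 694.8, and erythroid markers to 131.7 and 523.4 and then 211.3 and 194.2. By limma 0 of the 14 T cell, 12 neutrophil and 16 erythroid markers were called in irradiated Trp53-/- cells, with 0 at an unadjusted p under 0.05, and 0 of the 12 B cell, 13 monocyte and macrophage and 5 tested endothelial markers, with 2, 1 and 3 at an unadjusted p under 0.05. Mast cell and basophil markers summed to 74.4 and 100.9 in mock and to 78.0 and 51.8 after IR. Of these 10 markers 2 were called as lower, Gata2 and Ms4a2, where 0.25% of all genes were. Endothelial markers summed to 67.2 and 76.6 in mock and to 50.2 and 49.3 after IR. Monocyte and macrophage markers summed to 474.6 and 722.1 in mock and to 538.4 and 388.8 after IR. The median log2 fold change in Trp53-/- cells was -0.92 for mast cell and basophil, -0.56 for endothelial and -0.47 for monocyte and macrophage markers, beside -1.09 for the 9 genes. For the difference of the responses the medians were 0.72, with 1 of 10 called, Cma1, and 0.38 and 0.74, with 0 called by limma and 1 and 3 at an unadjusted p under 0.05. Of all genes, 7.35% were called for that difference. The part of these cells in the values of the 9 genes was not tested. No marker of any list was at 0 in all samples. In mock Trp53+/+ non-B cells the sum of the 9 genes was lower in replicates 1 and 2 (87.8 and 94.8) than in 3 and 4 (119.6 and 124.5), and the difference of the responses was 1.83 with replicates 1 and 2 alone and 1.51 with 3 and 4 alone for Ppbp, called both times. Gp6 was called with neither pair (adjusted p = 0.0699 and 0.0772 by limma), and Pf4 with replicates 1 and 2 only (0.0429 and 0.0703).

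**Figure D5:**
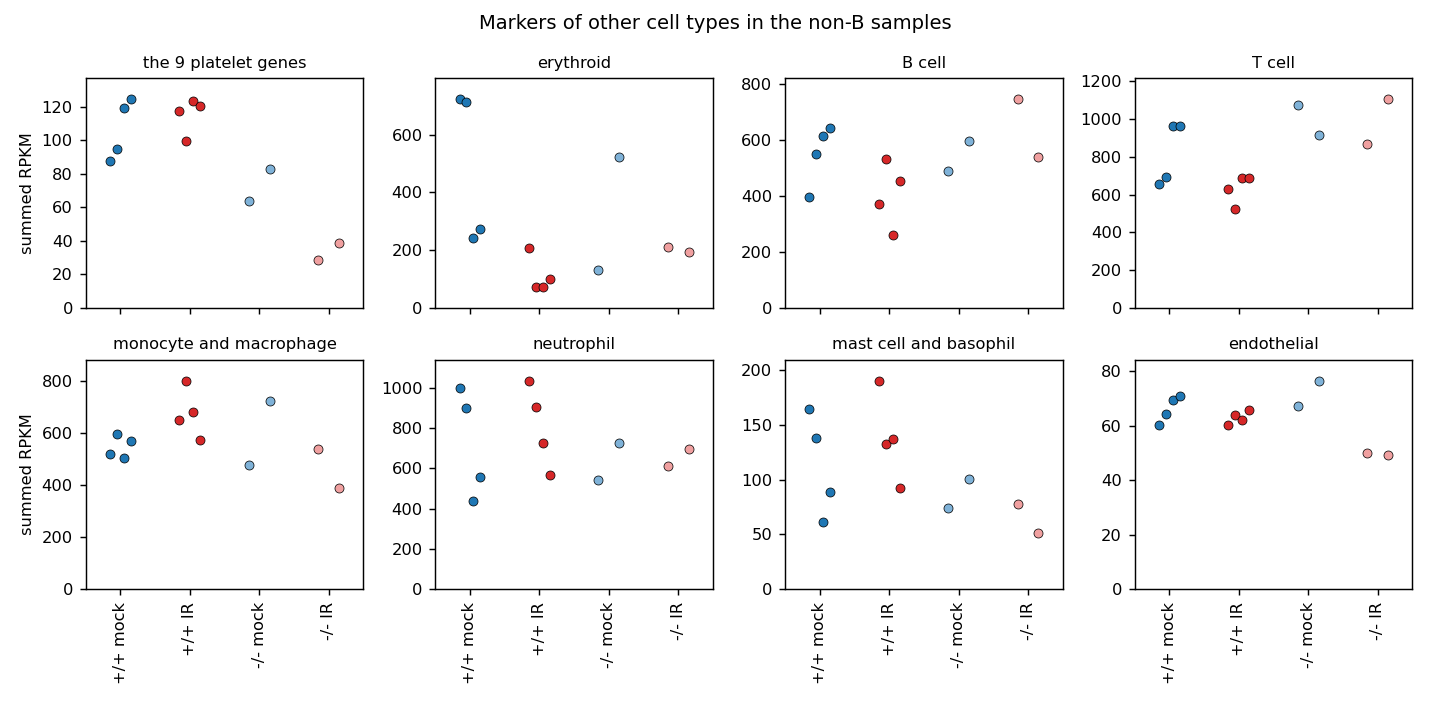
Summed RPKM (linear axis from 0) of the 9 genes and of marker lists of 7 other cell types in each of the 12 non-B samples, a point per sample, with 4 Trp53+/+ or 2 Trp53-/- samples a group. The 9 genes are lowest in the 2 irradiated Trp53-/- samples, at 28.6 and 39.0, where T cell and neutrophil markers lie within 867.3 to 1103.5 and 609.1 to 694.8.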

How the data were processed

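The 9 genes, the lists of further genes and the markers were chosen with earlier results of these data known. The authors sequenced the libraries, masked bases of low quality, aligned reads to mm9 with TopHat (TopHat2 2.0.8 and featureCounts 1.4.5 per the submitters' processing notes), kept 1 of each set of duplicated reads, which limits high values, and assigned reads to UCSC gene models. The authors deposited RPKM, scaled to reads on exons and rounded, so a change in the RNA content of cells does not show. The strand was not used in counting, as far as the study's options tell.

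Since counts are not analysed here, log2(RPKM + 0.5) was fitted with limma 3.58.1 in R 4.3.3 (eBayes with a mean-variance trend), in 1 fit per cell type (12 samples, 4 group means, genes above an RPKM of 1 in at least 1 of its 8 Trp53+/+ samples) and 1 of all 24 samples (8 group means, above 1 in at least 1 sample). The call needed an adjusted p (Benjamini-Hochberg) below 0.05 with a log2 fold change beyond 0.58 in either direction, and differences of responses at the adjusted p alone. Counts at an unadjusted p under 0.05 have no share of all genes beside them, except in Trp53-/- non-B cells without the 5 libraries. Those counts are a description. All 9 genes passed the filter in non-B cells and in the fit of 24 samples, Gp6 in the latter through non-B samples alone, and 8 in B cells. Of these, Gp1bb and Treml1 passed in B cells through irradiated Trp53+/+ replicate 1 alone. The fit was tried on simulated data with independent noise, in which only genes above an RPKM of 1 in every sample were changed. That trial does not cover changes in genes with few reads, such as Gp6, Gp1bb and Treml1. Python 3.11.15 with numpy 2.4.6, pandas 2.3.3, scipy 1.17.1 and matplotlib 3.10.9 did the rest.

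Genes other than the 9 are named by rule. They are, in each of 4 lists, the 3 called in irradiated Trp53+/+ non-B cells with the largest change, the 10 most alike by correlation (1 of them is not reported here), check genes of the p53 pathway, and neighbours of the 9. Others named as members of a count were added after their values were seen.

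Depth was estimated with exonic lengths of the GENCODE annotation of the same build, found for 91.9% of genes, and 54.25% to 66.91% of low values came within 0.1 of a whole number of reads. For a depth fixed in advance chance gives 20%. The depth was chosen on these same values to bring them near whole numbers, so that 20% is not its chance level. Deviations of same-numbered mock and irradiated samples from their group means correlated in Trp53+/+ non-B cells (r = 0.156 to 0.323), which pairs the numbers there by the data only, and the replicate number as a block left the calls there as they were, 0 of 9. All alternatives were recomputed.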

Additional observations from a re-analysis of the deposited data

Results flagged for a closer look

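In 2 of 36 sets of 4 samples, 1 sample lay far from the others, beyond Dixon's 95% limit for the gap over the range, and chance gives about 1 in 20. For Gp9 in irradiated Trp53+/+ non-B cells this ratio was 0.96, replicate 2 being at an RPKM of 6.77 and the others at 10.3 to 10.4. That sample was the only one of the 4 with few reads on receptor genes. For Gp1ba in mock Trp53+/+ non-B cells it was 0.903, replicate 3 being at 11.7 and the others at 9.31 to 9.54.

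The response to IR in non-B cells differed between the genotypes, Trp53+/+ minus Trp53-/- on the log2 scale, by 1.67 for Ppbp, 1.61 for Gp6 and 1.60 for Pf4. Between Trp53+/+ non-B and B cells, it differed by 0.45 for Gp1ba, 1 of 9 genes called where 29.9% of all genes were. None of these calls held in every alternative fit.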

How the results depend on the processing

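Results were recomputed with other pseudocounts, filters, scalings, thresholds and subsets. Of the counts of called genes, 256 stayed within 1.5 times the reported count while 30 moved further. Many of the 256 were counts of 0 that stayed at 0, so that this total does not measure how stable the calls were. That 8 genes were higher in non-B cells held in every fit that kept the fold threshold. The difference of the responses between genotypes in non-B cells, 3 calls, became 1 with no filter, quantile normalization, the share of receptor genes as a covariate or Trp53+/+ replicates 3 and 4 alone, and 0 without the 5 libraries rich in receptor reads, a setting chosen after seeing the data, which also left 0 calls for Trp53-/- non-B cells and for the difference between cell types. With the replicate number as a block, Trp53-/- B cells had 1 call in place of 0 and the difference between cell types 0 in place of 1, and no other call changed. The labels do not say what same-numbered samples share. Deviations of same-numbered B and non-B samples from their group means had r from -0.103 to 0.35 over 12 pairs, 6 of them above 0.1. The fit of all 24 samples took both cell types as separate samples, and with the block 8 genes stayed called as higher in non-B cells. Mock and irradiated Trp53-/- non-B samples of 1 number deviated in opposite ways (r = -0.253), and with their numbers crossed in the block, chosen after seeing the data, 1 gene in Trp53-/- cells and 3 differences were called. The difference between cell types also had 0 calls with Trp53+/+ replicates 1 and 2 or 3 and 4 alone.

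Leaving out 1 library gave 1 to 3 calls for the difference of the responses in non-B cells, 0 to 1 for Trp53-/- non-B cells, 0 to 2 for Trp53-/- B cells, 0 to 1 for Trp53+/+ B cells, 0 to 1 for the difference of the responses in B cells and 0 to 2 for the difference between cell types. A sample left alone in its group is then assumed to vary like the others.

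Changes of sign touched small values that were never called. In Trp53+/+ non-B cells the log2 fold change turned to -0.0708 for Ppbp and -0.17 for Itga2b with replicates 3 and 4 alone, to -0.0002 and -0.15 without the 5 libraries, to 0.0606 for Gp1bb with replicates 1 and 2 alone and to -0.0738 for Gp6 with the covariate. In Trp53+/+ B cells it turned to -0.19 with quantile normalization and -0.25 with the covariate for Gp1bb, and to 0.0073 with median-ratio scaling and 0.21 with replicates 1 and 2 alone for Gp5. The difference between cell types for Pf4 became -0.19 with replicates 3 and 4 alone and -0.46 without the 5 libraries. With 1 library left out, the fold change ran from -0.0052 to 0.18 for Itga2b in Trp53+/+ non-B cells and from -0.11 to 0.15 for Gp5 in Trp53+/+ B cells, and the difference for Pf4 from -0.14 to 0.30. The causes were not tested. Depth limits Gp1bb, Gp6 and Treml1, whose values rest on about 10 reads or fewer at the median.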

Other observations

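The ratio of Pf4 to Ppbp within a sample, a pair of neighbouring chemokine genes, was looked at after the values were seen. In mock Trp53+/+ B cells it was 0.270, 0.332, 0.330 and 0.406, and in irradiated ones 0.465, 1.05, 1.06 and 0.810, so that the groups did not overlap (exact two-sided permutation test on the log2 ratio, p = 0.0286, the smallest that 4 samples against 4 allow, or 0.0572 adjusted over the 4 ratio tests made). In non-B cells it was 0.322, 0.366, 0.457 and 0.432 in mock and 0.494, 0.420, 0.621 and 0.480 in irradiated Trp53+/+ samples, which overlap (exact permutation test, p = 0.0857). In Trp53-/- B cells it was 0.535 and 0.418 in mock and 0.551 and 0.870 in irradiated samples.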
